A study of Mus musculus with 4 samples.

Results

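The blood-brain barrier endothelial genes described here are Cldn5, Cdh5, Pecam1, Flt1, Tek, Slc2a1, Mfsd2a, Abcb1a, Slco1a4 and Ly6c1. They were looked up by symbol and Entrez identifier, and all 10 were found among the 12700 genes of the count table. RNA-seq was performed on polyA RNA from C57BL/6 mice aged 9 months that were either Ids-/-, a model of the lysosomal storage disease mucopolysaccharidosis type II, or wild type. Tissue was taken from cerebral cortex (Cx) or from midbrain, diencephalon and hippocampus (M). The libraries are CxH (cortex, Ids-/-), CxWT (cortex, wild type), MH (midbrain, diencephalon and hippocampus, Ids-/-) and MWT (the same area, wild type). Each was made from the RNA of several pooled mice, so there was 1 library per condition and no replicate. Ids encodes iduronate-2-sulfatase, a lysosomal enzyme that removes sulfate from heparan and dermatan sulfate, and it is disrupted in every cell of the knock-out. In these bulk samples endothelial cells are a small part of the tissue, and fewer endothelial cells cannot be told apart from less RNA per cell.

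Values are counts scaled to 1000000 aligned reads (RPM), with the 95% exact Clopper-Pearson interval, and 4 values given in library order are those of CxH, CxWT, MH, MWT. The libraries held between 16380080 (MWT) and 23475080 (CxH) reads on genes, and 3 reads, the lowest number treated as detected, came to between 0.0779 and 0.104 RPM. All of the barrier genes had 100 or more reads in each library, from 313 (Cldn5 in MWT) to 4392 (Slc2a1 in CxH). A log2 ratio between 2 libraries is given with ±, its standard error. Intervals and errors cover counting error only. A gene counts as called higher or lower where the Poisson likelihood ratio test of the study's methods passed p under 0.05 and the levels differed by a log2 ratio of 0.7 or more in either direction (1.62-fold). Such a call compares 2 libraries and not 2 conditions.

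The libraries did not all match their labels. Ids (chrX:67596244-67618260 in NCBIM37/mm9) had 135 RPM in CxH, 354 in CxWT, 368 in the library labelled MH and 155 in the library labelled MWT. In M, the library labelled wild type therefore had fewer Ids reads than the library labelled knock-out, with a log2 ratio of MH over MWT of 1.24 ± 0.025. The counts do not separate the exons of Ids, so reads from any part of the gene that the disruption leaves are included. Cortical projection neuron genes, such as Tbr1 and Neurod6, summed to 395 RPM in CxH and 349 in MH but to 87.3 in CxWT and 70.3 in MWT. Midbrain and diencephalon neuron genes, such as Slc6a3 and Tph2, summed to 10.6 and 10.2 RPM in CxH and MH and to 265 and 210 RPM in CxWT and MWT. By both lists, the library labelled MH stood with CxH, and the library labelled CxWT stood with MWT. The libraries are named by their labels throughout, all 6 pairs of libraries are given, and any direction drawn between genotypes or areas rests on labels that these genes go against.

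Brain endothelial cells line the capillaries and form the blood-brain barrier. They are sealed to each other by tight junctions (Cldn5) over adherens junctions (Cdh5), move few transport vesicles, carry nutrients in by dedicated transporters (Slc2a1 for glucose) and pump many drugs back to the blood (Abcb1a). Astrocyte end-feet and pericytes surround them, and Wnt ligands of the neural tissue keep the barrier program on during development and in the adult.

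Promoters of 3 of the genes are shown because their levels differed most between libraries (Cldn5 and Ly6c1) or had the most reads among the receptors (Flt1). The letters are the 250 bases before each transcription start in RefSeq (GRCm38.p6), written 5′ to 3′ on the gene's strand, and capitals mark GGAAG or its reverse complement CTTCC, the core that ETS factors recognise. ETS factors are central to endothelial transcription. The Cldn5 window is chr16:18776597-18776846 (+ strand), the Flt1 window is chr5:147726012-147726261 (- strand), and the starts of Ly6c1 have overlapping windows, chr15:75048838-75049087 and chr15:75048664-75048913 (- strand).
Cldn5: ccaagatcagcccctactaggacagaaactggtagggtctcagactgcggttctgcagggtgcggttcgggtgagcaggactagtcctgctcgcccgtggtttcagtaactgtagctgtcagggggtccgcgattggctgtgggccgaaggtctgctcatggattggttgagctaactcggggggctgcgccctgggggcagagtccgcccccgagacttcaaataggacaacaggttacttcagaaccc
Flt1: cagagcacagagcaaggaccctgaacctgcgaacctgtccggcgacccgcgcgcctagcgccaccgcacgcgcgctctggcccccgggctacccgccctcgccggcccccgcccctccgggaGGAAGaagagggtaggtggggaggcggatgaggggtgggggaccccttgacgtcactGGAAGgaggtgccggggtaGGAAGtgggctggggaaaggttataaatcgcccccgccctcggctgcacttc
Ly6c1 upstream start: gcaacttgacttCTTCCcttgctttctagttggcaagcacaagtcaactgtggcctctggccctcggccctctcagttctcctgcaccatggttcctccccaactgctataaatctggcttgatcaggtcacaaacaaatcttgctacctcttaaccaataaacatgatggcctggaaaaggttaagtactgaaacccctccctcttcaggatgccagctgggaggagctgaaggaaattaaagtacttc
Ly6c1 downstream start: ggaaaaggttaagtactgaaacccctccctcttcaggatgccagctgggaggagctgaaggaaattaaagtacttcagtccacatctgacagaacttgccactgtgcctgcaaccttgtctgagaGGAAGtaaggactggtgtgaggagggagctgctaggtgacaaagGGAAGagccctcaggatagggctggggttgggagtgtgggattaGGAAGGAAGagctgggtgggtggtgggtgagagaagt
No GGAAG was found in the Cldn5 window, whereas the Flt1 window held 3 and the Ly6c1 windows 1 and 4. RefSeq windows were found for 8 of the 10 genes (9 windows), all but Pecam1 and Cdh5. On either strand, GGAAG was in 5 of the 9 windows against 64.1% of 32851 promoter windows of the same length. The longer CCGGAAG, which contains it, was in 0 of the 9 (6.91% of all windows), the SOX word ACAAAG in 3 (16.5%), the TCF/LEF word CTTTGA in 2 (13.8%), TATAAA in 2 (12.4%) and the GC box GGGCGG in 3 (32.7%). These are matches of letters and not binding sites.

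Of the junction genes, Cldn5 differed most between libraries. Cldn5 (chr16:18776940-18778353, + strand) encodes claudin 5, the main sealing protein of the barrier's tight junctions. It had 24.3 RPM (22.8 to 25.9) in CxH, 14.8 (13.5 to 16.1) in CxWT, 16.0 (14.7 to 17.3) in MH and 10.8 (9.65 to 12.1) in MWT. CxH was the highest and MWT the lowest, and MH and CxWT did not differ beyond their counting intervals. The log2 ratio was 0.72 ± 0.080 for CxH over CxWT, a call, and 1.17 ± 0.094 for CxH over MWT, also a call and a fold of 2.25. After a correction of the ratios for GC content and transcript length (described further on), they were 0.38 and 0.49, and neither was a call. For MH over MWT it was 0.56 ± 0.10, which was below the threshold on size.

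Cdh5 (chr8:106625525-106668402, + strand) encodes VE-cadherin, the adhesion protein of endothelial adherens junctions. It had 19.1 RPM (17.7 to 20.5) in CxH, 11.1 (9.998 to 12.3) in CxWT, 14.4 (13.2 to 15.7) in MH and 12.3 (11.1 to 13.7) in MWT. Cdh5 was highest in CxH, then in MH, and the interval of MWT overlapped those of MH and CxWT. CxH was called higher than CxWT, by 0.78 ± 0.092 on the log2 scale or 1.72-fold. After the GC content and length correction this ratio was 0.697, just under the threshold and no longer a call. The ratio of MH over MWT was 0.23 ± 0.098.

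Pecam1 (chr11:106515531-106611942, - strand), the platelet and endothelial adhesion molecule at cell borders, was not called in any pair. It had 20.6 RPM (19.2 to 22.1) in CxH, 14.8 (13.5 to 16.1) in CxWT, 16.2 (14.9 to 17.5) in MH and 17.6 (16.1 to 19.2) in MWT. CxH had the most, though its interval just overlapped that of MWT, and the intervals of the others overlapped from neighbour to neighbour. The 95% interval of the log2 ratio of CxH over MWT was 0.06 to 0.39. The log2 ratio was 0.48 ± 0.083 for CxH over CxWT and -0.12 ± 0.087 for MH over MWT.

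The receptors Flt1 and Tek had their lowest level in CxWT. Flt1 (chr5:148373180-148537587, - strand) encodes a receptor and trap for vascular endothelial growth factors. It had 57.7 RPM (55.3 to 60.1) in CxH, 36.6 (34.6 to 38.8) in CxWT, 41.5 (39.5 to 43.6) in MH and 41.1 (38.8 to 43.5) in MWT. CxH stood above MH and MWT, which overlapped. The log2 ratio of CxH over CxWT, 0.65 ± 0.051, was just below the threshold, and that of MH over MWT was 0.014 ± 0.056.

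Tek (chr4:94405980-94541667, + strand) encodes TIE2, the angiopoietin receptor that keeps vessels quiescent. It had 19.6 RPM (18.2 to 21.0) in CxH, 13.0 (11.8 to 14.3) in CxWT, 15.8 (14.5 to 17.1) in MH and 19.3 (17.7 to 20.9) in MWT. CxH and MWT were high together, MH lay below them and CxWT was lowest. The log2 ratio was 0.59 ± 0.087 for CxH over CxWT and -0.29 ± 0.085 for MH over MWT, neither a call.

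Slc2a1 (chr4:118781316-118809935, + strand) encodes GLUT1, which brings glucose across the barrier and is also made by astrocytes. It had 114 RPM (111 to 117) in CxH, 117 (113 to 120.4) in CxWT, 105 (102 to 108) in MH and 84.2 (80.9 to 87.6) in MWT. Both libraries labelled Cx were high and overlapped, MH was lower and MWT lowest. The ratio of CxH over CxWT was -0.03 ± 0.032, and that of MH over MWT was 0.32 ± 0.037. After the GC content and length correction these were -0.21 and 0.13.

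Mfsd2a (chr4:122624093-122638431, - strand) encodes the lysolipid carrier that imports docosahexaenoic acid and holds down transcytosis. It had 21.0 RPM (19.5 to 22.5) in CxH, 24.99 (23.3 to 26.7) in CxWT, 18.7 (17.3 to 20.1) in MH and 20.4 (18.8 to 22.1) in MWT. CxWT stood above the other libraries, whose intervals overlapped from neighbour to neighbour. Its log2 ratio was -0.25 ± 0.071 for CxH over CxWT and -0.13 ± 0.081 for MH over MWT.

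Abcb1a (chr5:8660077-8748575, + strand) encodes P-glycoprotein, the drug efflux pump of the luminal membrane, and had the narrowest range in RPM. It had 25.2 RPM (23.6 to 26.8) in CxH, 24.4 (22.8 to 26.1) in CxWT, 29.0 (27.3 to 30.8) in MH and 27.8 (26.0 to 29.8) in MWT, a fold of 1.19 from lowest to highest. The libraries labelled M overlapped each other, as did the libraries labelled Cx, and the interval of MWT also overlapped those of CxH and CxWT. The log2 ratio of 0.05 ± 0.068 (95% interval -0.09 to 0.18) for CxH over CxWT and of 0.06 ± 0.067 (-0.07 to 0.19) for MH over MWT bound the difference between these libraries as far as counting goes. After the GC content and length correction the ratios were 0.24 and 0.23, both above these intervals. Its near copy Abcb1b, 87.5% identical over 3985 aligned bases, had 8.52, 5.98, 7.55 and 7.95 RPM in library order, and Abcb1a held between 74.7% and 80.3% of the reads of the pair.

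Slco1a4 (chr6:141753961-141804720, - strand) encodes an organic anion transporter for hormones, bile acids and drugs. It had 29.3 RPM (27.6 to 31.0) in CxH, 32.5 (30.6 to 34.5) in CxWT, 33.2 (31.4 to 35.1) in MH and 45.0 (42.6 to 47.5) in MWT. MWT was above all others, and CxH had the least, with an interval that overlapped that of CxWT. After the GC content and length correction, the log2 ratios of CxH were 0.26 over CxWT, 0.10 over MH and 0.07 over MWT. Those over MH and MWT lay within 2 counting errors (0.059 each) of 0. CxH was then no longer the lowest, but was not set apart from MH and MWT. Before the correction, the log2 ratio was -0.44 ± 0.057 for MH over MWT and -0.62 ± 0.059 for CxH over MWT, neither a call. Slco1a5 and Slco1a6, whose transcripts were 88.8% and 81.5% identical to that of Slco1a4 over the aligned part, were not analysed here, so a split of reads among the copies cannot be checked.

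Ly6c1 (chr15:74875447-74879260, - strand) encodes a surface protein anchored by a lipid tail and rich on brain endothelium. It had 25.6 RPM (24.1 to 27.3) in CxH, 19.1 (17.6 to 20.6) in CxWT, 14.3 (13.1 to 15.6) in MH and 28.2 (26.3 to 30.2) in MWT. MWT and CxH were high, with intervals that overlapped, CxWT lay below them and MH was lowest. The log2 ratio of CxH over MWT was -0.14 and turned to 0.16 after the GC content and length correction. MH was called lower than MWT, by -0.98 ± 0.080 on the log2 scale, and CxH was called higher than MH, by 0.84 ± 0.077. After the correction the first was -0.55 and no longer a call, and the second was 0.71 and still a call. The Ly6c1 transcript is 98.0% identical to that of Ly6c2 over 792 bases, so its reads are uncertain. Ly6c2 (chr15:74938590-74942114) had 28.7, 24.3, 21.5 and 31.0 RPM in library order, with the extremes in the same libraries, and Ly6c1 held from 39.9% (MH) to 47.6% (MWT) of the reads of the pair.

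**Figure D1:**
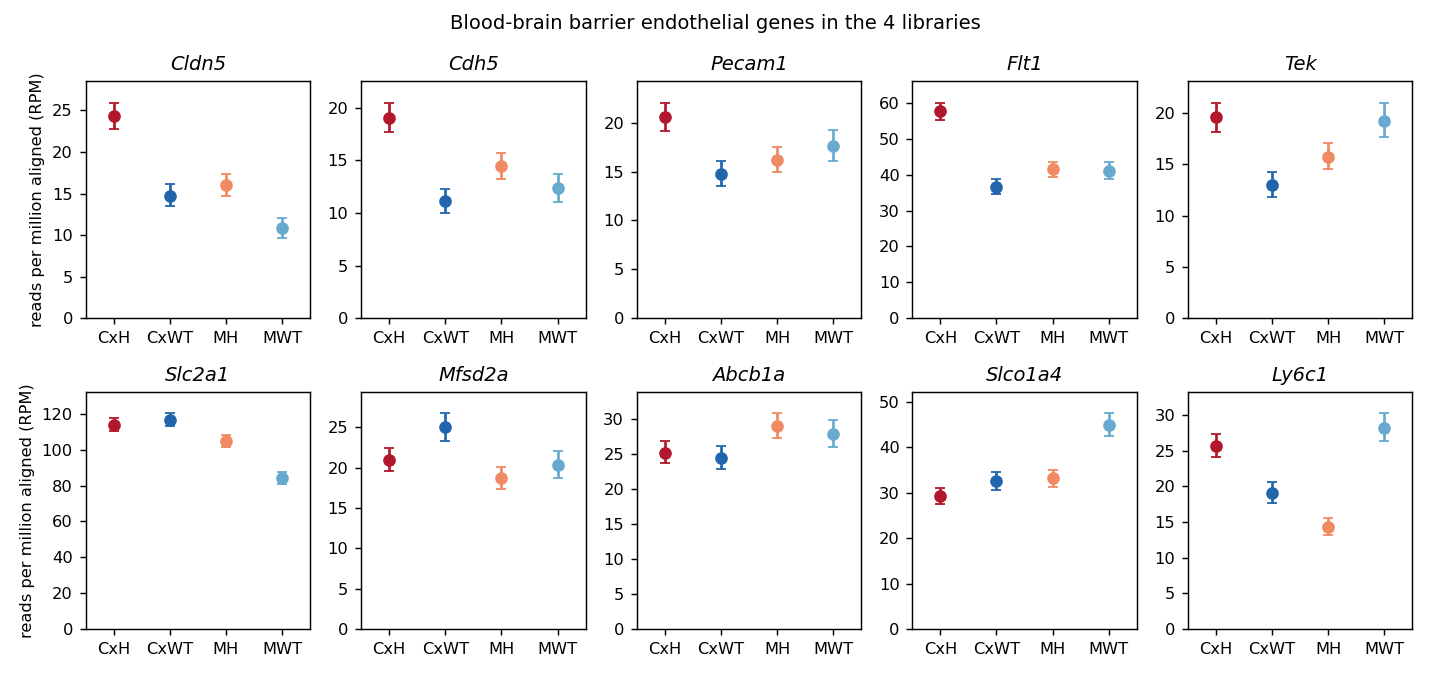
Level in RPM (vertical axes, each from 0) of the 10 genes in the libraries labelled CxH, CxWT, MH and MWT, with bars for the 95% exact counting interval. Cldn5, Cdh5, Pecam1 and Flt1 stood highest in CxH, Ly6c1 and Slco1a4 in MWT, and Abcb1a changed least.

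Across the libraries, 5 of the genes had their highest level in CxH, 2 in MWT, 2 in CxWT and 1 in MH, and 5 had their lowest level in CxWT, 2 in MH, 2 in MWT and 1 in CxH. The fold from the lowest to the highest library had a median of 1.52 over the 10 genes and reached 2 for 1 of them, Cldn5. Over the 11010 genes of the table that had 100 or more reads in all 4 libraries, the median was 1.498 and 16.5% reached 2. Per kilobase of the longest coding transcript, Slc2a1 had the highest mean level of the 4 libraries (40.3 RPM per kb), then Ly6c1 (26.0) and Cldn5 (11.6). Mfsd2a (9.88), Slco1a4 (9.15), Flt1 (6.42), Abcb1a (5.32) and Pecam1 (5.02) followed, with Tek (3.63) and Cdh5 (3.57) lowest.

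In CxH against CxWT, the comparison of genotypes in cortex by label, 2 of the 10 genes, Cldn5 and Cdh5, were called higher, where 9.46% of all genes were, and 0 were called lower, where 11.5% were (20.9% either way). Neither call held after the GC content and length correction, where Tek was called instead (0.71). With p under 0.05 alone, 8 of the 10 passed, against 73.4% of all genes. The log2 ratio was above 0 for 7 of the 10 and for 42.5% of all genes. The median was 0.45 over the 10 genes and -0.09 over all genes. The junction and border genes, both receptors and Ly6c1 had log2 ratios between 0.43 and 0.78, while the carriers and the pump lay between -0.25 and 0.05.

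In MH against MWT, Ly6c1 was the 1 gene called lower (12.7% of all genes) and 0 were called higher (12.3%), with 25.0% of all genes called either way. At p under 0.05 alone 6 passed, against 74.8% of all genes. Ratios were split, 5 above 0 (45.5% of all genes) and 5 below, with a median of -0.05 that lay beside the -0.07 of all genes.

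In CxH against MH, the areas of the knock-out by label, Ly6c1 was called higher (1 of 10, against 2.43% of all genes) and 0 were called lower (1.06%), with 3.50% of all genes called either way. All 10 passed p under 0.05 alone, against 59.1% of all genes, and 8 of the 10 ratios were above 0, against 51.9%. The median was 0.33 for the 10 genes and 0.015 for all genes. Abcb1a at -0.20 ± 0.064 and Slco1a4 at -0.18 ± 0.059 were the genes with less in CxH, and the GC content and length correction moved them to -0.03 and 0.10.

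In CxWT against MWT, the areas of the wild type by label, 0 of the 10 genes were called, against 5.43% of all genes called higher and 2.11% called lower (7.54% either way). At p under 0.05 alone 9 passed, against 61.7% of all genes. Only Cldn5 (0.45 ± 0.10), Slc2a1 (0.47 ± 0.037) and Mfsd2a (0.29 ± 0.077) had ratios above 0, 3 of 10 against 55.3% of all genes. The lowest were Tek at -0.57 ± 0.092, Ly6c1 at -0.57 ± 0.076 and Slco1a4 at -0.47 ± 0.059. After the GC content and length correction, Cldn5, Slc2a1 and Mfsd2a were at 0.11, 0.32 and 0.23. Tek, Ly6c1 and Slco1a4 were then at -0.47, -0.24 and -0.19. The median was -0.18 for the 10 genes and 0.045 for all genes.

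The remaining pairs differ in both labels. In CxH against MWT, the pair with low Ids, Cldn5 was called higher (1 of 10, against 15.6% of all genes) and 0 were called lower (15.1%, and 30.7% either way), while 8 passed p under 0.05 alone (78.8% of all genes). Cdh5 (0.63 ± 0.093), Flt1 (0.49 ± 0.052) and Slc2a1 (0.44 ± 0.036) were higher without a call, Tek (0.02 ± 0.081) and Mfsd2a (0.04 ± 0.078) had ratios within 1 standard error of 0, and Slco1a4 was lowest. After the GC content and length correction, Cdh5, Flt1 and Slc2a1 were at 0.47, 0.36 and 0.11, and Tek and Mfsd2a at 0.24 and -0.17. Ratios were above 0 for 7 of 10, against 47.8% of all genes. In MH against CxWT, the pair with high Ids, 0 of the 10 were called, against 6.41% of all genes called higher and 8.89% lower (15.3% either way), and 7 passed p under 0.05 alone (66.6%). Ratios above 0 were 7 of 10, against 37.8% of all genes, and they ran from -0.42 ± 0.074 for Mfsd2a and -0.41 ± 0.084 for Ly6c1 to 0.38 ± 0.097 for Cdh5.

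**Figure D2:**
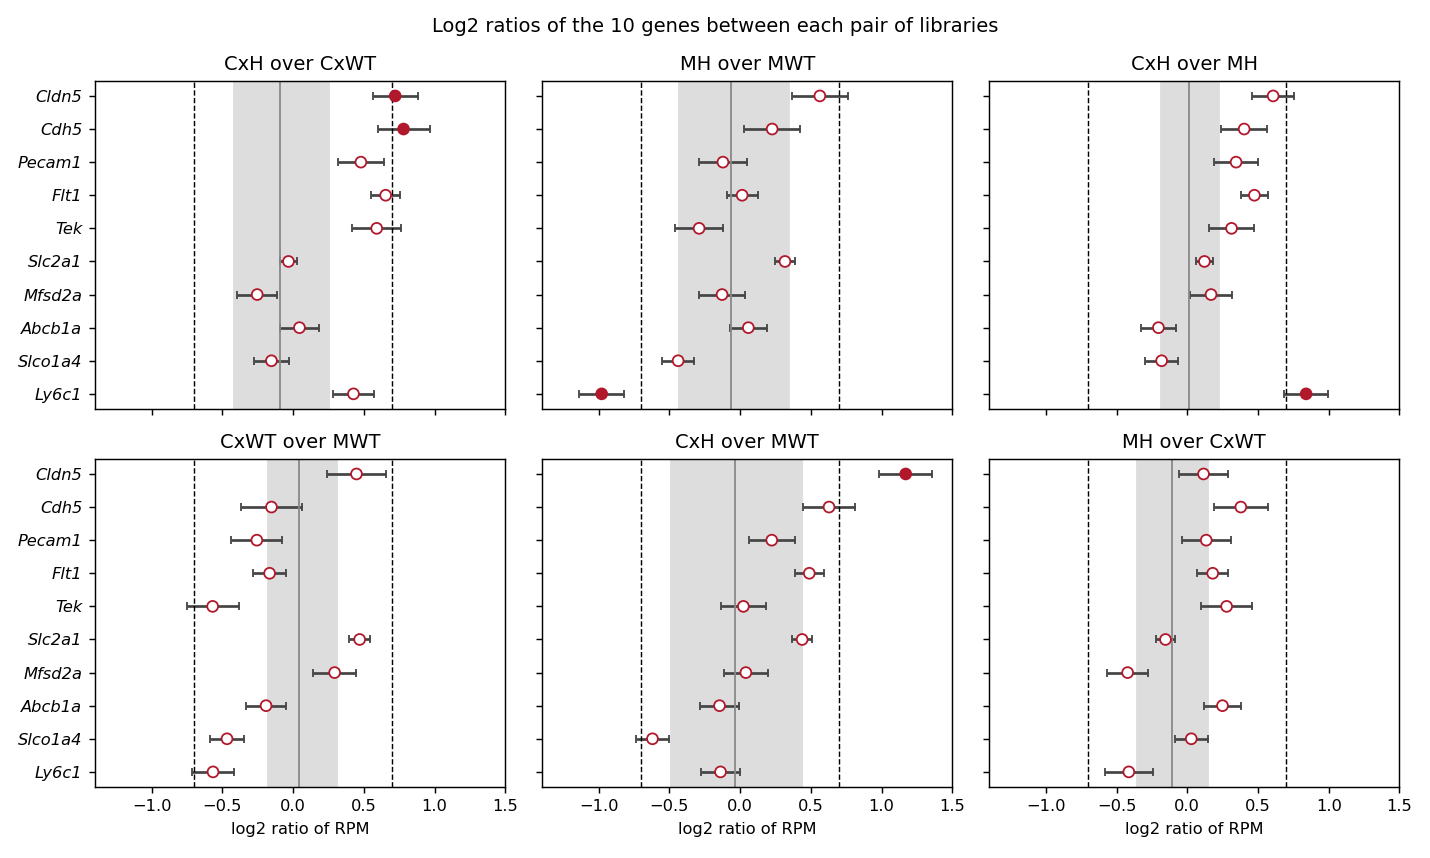
Log2 ratios of RPM (horizontal axes) of the 10 genes in each of the 6 pairs of libraries, first library over second, with 95% exact counting intervals. Filled points were called, dashed lines mark the threshold of 0.7 in size, and the grey line and band give the median and the middle quartiles of all genes. Cldn5 and Cdh5 are called in CxH over CxWT, Ly6c1 in MH over MWT and CxH over MH, and Cldn5 in CxH over MWT.

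The ratios of genotypes by label differed between Cx and M for some of these genes. The difference, CxH over CxWT minus MH over MWT, was called (p-value under 0.05 by a Wald test on counting errors, and at least 0.7 in size) for 2 of the 10 genes and for 13.2% of all genes. It was 1.41 ± 0.11 for Ly6c1 and 0.88 ± 0.12 for Tek. Flt1 (0.64 ± 0.076), Pecam1 (0.60 ± 0.12) and Cdh5 (0.55 ± 0.13) were short of the threshold, and Cldn5 (0.16 ± 0.13), Abcb1a (-0.01 ± 0.096) and Mfsd2a (-0.13 ± 0.11) had differences within 2 standard errors of 0. Slc2a1 was the gene with the most negative difference, -0.35 ± 0.049. As the Ids reads go against the labels in M, the sign of MH over MWT, and with it this difference, holds for the labels only.

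The 4 libraries can also be fitted together, with 2 of each genotype by label and area as a block, which leaves 1 residual degree of freedom. The study dissected each brain into both areas, so by label the 2 libraries of a genotype come from the same mice. They are not independent replicates of the genotype, and the p-values of these fits do not cover variation between mice. By edgeR's quasi-likelihood test with Benjamini-Hochberg adjustment, 1 of the 10 genes passed an adjusted p of 0.05, Cldn5, at a log2 fold change of 0.64 for the libraries labelled Ids-/- over those labelled wild type (adjusted p = 0.041), against 18.7% of all genes. The fit used counts without the GC content and length correction, after which the Cldn5 ratios were 0.38 in CxH over CxWT and 0.17 in MH over MWT, from 0.72 and 0.56. Cdh5 had 0.51 (adjusted p = 0.13). Without the block no barrier gene passed, with Cldn5 at an adjusted p of 0.052, against 21.0% of all genes. For area, 0 of the 10 and 0.00% of all genes passed. At an unadjusted p under 0.05 there were 615 of 12700 genes, Cldn5 among them (adjusted p = 0.82). That number is no larger than this threshold alone would give with no difference between areas. Each side of this split by label holds 1 library with low and 1 with high Ids reads (135 and 368 RPM in CxH and MH, 354 and 155 RPM in CxWT and MWT), whereas its sides differ in both libraries in the cortical and the midbrain and diencephalon genes.

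Other genes of the barrier and of endothelium were read from fixed lists in the same way. Of 14 further junction genes in the table, Lsr, the angulin of tricellular junctions, was called higher in CxH than in CxWT (0.74 ± 0.12; 1 of 14, against 9.46%), and Cldn12 (-0.78 ± 0.056) and Cgn (-1.48 ± 0.13) were called lower (2 of 14, against 11.5%). Cgn encodes cingulin of the tight junction plaque and is also found in epithelia. In MH against MWT, 0 were called higher (12.3%), and Cgn (-1.24 ± 0.14) and Jam2 (-0.73 ± 0.13) were called lower (2 of 14, against 12.7%). After the GC content and length correction, of these calls only those of Cgn held. The sum of the list stayed between 335 and 370.3 RPM in the 4 libraries.

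Of 19 further transporters, at most 2 were called in either direction in CxH against CxWT (9.46% of all genes higher, 11.5% lower) and in MH against MWT (12.3% and 12.7%). The glutamine carrier Slc38a5 was called higher in CxH than in CxWT (1.12 ± 0.20) and lower in MH than in MWT (-1.58 ± 0.26). Slc16a1, the lactate carrier MCT1, which oligodendrocytes also make, and Slc16a4 were called lower in CxH than in CxWT (-0.75 ± 0.048 and -0.91 ± 0.24). Slc7a5, the large amino acid carrier LAT1, was called higher in MH than in MWT (0.77 ± 0.051). After the correction the calls of Slc38a5 held and those of Slc16a1, Slc16a4 and Slc7a5 did not. The median of the list was 0.16 and 0.15 in these pairs.

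Of 33 endothelial identity genes in the table, 10 were called higher (against 9.46% of all genes) and 1 lower (against 11.5%) in CxH against CxWT, led in reads by Cd34 (1.57 ± 0.051), Podxl (1.02 ± 0.057), Eng (0.79 ± 0.063) and Acvrl1 (0.97 ± 0.095), and Calcrl, a receptor component for adrenomedullin and CGRP, was the gene called lower (-0.78 ± 0.14). In MH against MWT, 7 were called higher (against 12.3% of all genes), among them Cd34 (0.87 ± 0.047), Eng (1.13 ± 0.084) and Acvrl1 (0.72 ± 0.11), and 3 lower (against 12.7%), which were Ly6a (-1.08 ± 0.062), Ctla2a and Calcrl. Eng and Acvrl1 encode a co-receptor and a receptor for bone morphogenetic proteins, and Cd34 and Podxl surface sialomucins that other brain or blood cells carry too. In CxH against MH, 3 were called higher (against 2.43%), which were Flt4 (0.70 ± 0.17), Pglyrp1 (0.70 ± 0.10) and Ctla2a (0.86 ± 0.17), and in CxWT against MWT Eng was called higher (0.76 ± 0.088; 5.43%) and Ly6a (-0.91 ± 0.061) and Ctla2a (-1.42 ± 0.18) lower (2.11%). After the GC content and length correction, 5 of the 10 higher calls in CxH against CxWT held, among them Cd34, Podxl and Acvrl1, and 2 of the 7 in MH against MWT, among them Cd34. The call of Calcrl ended in both. Ly6a shares 83.3% of its bases with Ly6c1 and, like it, was lowest in MH and highest in MWT, at 38.2, 26.6, 23.6 and 49.96 RPM in library order. The medians of the list in these 4 pairs were 0.49, 0.16, 0.27 and -0.04.

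Of 10 ligands and co-receptors of Flt1 and Tek in the table, Angpt1, the agonist of TIE2 made by pericytes and other perivascular cells, was called lower in CxH than in CxWT (-1.49 ± 0.12) and in MH than in MWT (-1.52 ± 0.11), a call that held after the correction in both. It had 5.01, 14.1, 6.26 and 17.9 RPM in library order, so both libraries with high midbrain genes were high. Pgf, a ligand of FLT1, was called lower in MH than in MWT (-1.13 ± 0.29). In all, 1 of 10 was called lower in CxH against CxWT (11.5% of all genes) and 2 of 10 in MH against MWT (12.7%), and 0 were called higher in either pair (9.46% and 12.3%). Vegfa, the main ligand, had ratios of -0.21 ± 0.039 and -0.28 ± 0.041, and Kdr, the signalling receptor, of 0.49 ± 0.095 and -0.13 ± 0.10.

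Of 18 genes of barrier Wnt signalling, 3 were called higher in CxH than in CxWT (against 9.46% of all genes), which were Tnfrsf19 (0.91 ± 0.050), Wnt7b (0.79 ± 0.068) and the co-receptor Lrp5 (0.74 ± 0.090), and 2 lower (against 11.5%), Tcf7l2 (-3.997 ± 0.12) and Lef1 (-1.28 ± 0.14). Tcf7l2 is also a marker of thalamus and is on the midbrain and diencephalon list. In MH against MWT, 3 were called higher (against 12.3%), which were Adgra2 (0.86 ± 0.095), the co-activator for WNT7 also known as GPR124, Tcf7 (0.81 ± 0.21) and Tcf7l1 (0.82 ± 0.27), and Tcf7l2 was called lower (12.7%). After the correction 1 of the 3 higher calls held in CxH against CxWT, Tnfrsf19, and 0 in MH against MWT, while the lower calls held. Ctnnb1 and Lrp6 were not called in either pair.

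Of 8 genes of leaky or activated endothelium in the table, 3 were called higher in CxH than in CxWT (against 9.46% of all genes) and 0 lower (11.5%). Icam1, a leukocyte adhesion molecule, had 9.01, 3.51, 4.23 and 6.22 RPM in library order. Vwf, the von Willebrand factor, had 34.3, 14.5, 17.0 and 16.3 RPM, and Lrg1, a secreted glycoprotein also made by neutrophils and reactive astrocytes, had 3.97, 0.654, 0.856 and 1.35. These 3 were called higher in CxH than in CxWT (1.36 ± 0.15, 1.24 ± 0.076 and 2.60 ± 0.33), and also in CxH than in MH (1.09 ± 0.14, 1.02 ± 0.070 and 2.21 ± 0.28), where 2.43% of all genes were. All 3 stayed called in both pairs after the GC content and length correction. In MH against MWT 0 of the 8 were called (25.0% of all genes either way), although after the correction Icam1 was at -0.77, a call, Lrg1 moved from -0.65 to -1.25 and Vwf from 0.06 to -0.54, and in CxWT against MWT Icam1 (-0.83 ± 0.17) and Lrg1 (-1.04 ± 0.38) were called lower (2.11% of all genes). Vcam1 (0.04 ± 0.070 in CxH over CxWT) and the caveolins Cav1 (-0.29 ± 0.082) and Cav2 (-0.25 ± 0.064) were not called in these pairs. Both caveolins had their lowest level in CxH, but after the correction their ratios of CxH over CxWT were 0.03 and 0.30. Plvap, Sele, Selp and Esm1 were not analysed here. On the other barrier and endothelial lists, the correction also added calls, among them those of Cldn1 (0.94) and Fli1 (0.89) as higher in CxH than in CxWT, of Slco1c1 (0.84) as higher in MH than in MWT, and of Vegfb (-0.74) and Pard3 (-0.73) as lower there.

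Levels of other cell types moved between the same libraries, and their part in the results above was not tested. Pericyte genes (10) summed to between 183 and 216 RPM and smooth muscle genes (4) to between 31.4 and 40.0. Without Zic1, also a gene of thalamic and cerebellar neurons, the other 9 pericyte genes summed to 192, 154, 168 and 137 RPM in library order, and 8 of them were above 0 in CxH over CxWT, with a median of 0.44, beside the 0.45 of the barrier genes. In MH over MWT 7 of the 9 were above 0, with a median of 0.39, beside the -0.05 of the barrier genes. These ratios are without the GC content and length correction. It moved Pdgfrb from 0.62 to 0.25, Rgs5 from -0.16 to 0.21 and Cspg4 from 0.54 to -0.21 in MH over MWT. Of the pericyte genes, Anpep was called higher in CxH than in CxWT (1.23 ± 0.19; 1 of 10, against 9.46% of all genes) and Zic1 was called lower there (-1.996 ± 0.067; 1 of 10, against 11.5%) and in MH than in MWT (-1.79 ± 0.072; 1 of 10, against 12.7%), while Pdgfrb, Rgs5 and Abcc9 were not called in these pairs. Genes of meningeal fibroblasts (5) summed to between 111 and 119.97 RPM, of which Igf2 had between 68.0 and 80.6, and pan-neuronal genes (6) to between 3025 and 3354. Of the fibroblast genes, Slc6a13 was called higher (0.75 ± 0.11) and Lum lower (-0.93 ± 0.26) in CxH than in CxWT, against 9.46% and 11.5% of all genes. Both were also called in CxH against MH (0.71 ± 0.10 and -0.95 ± 0.26), against 2.43% and 1.06%. After the correction only the call of Lum in CxH against MH held. Within the pan-neuronal list, Rbfox3, which encodes NeuN, was called higher in CxH than in CxWT (1.43 ± 0.031) and in MH than in MWT (1.61 ± 0.041), 1 of 6 against 9.46% and 12.3% of all genes. Every gene of these 4 lists had reads in every library. The red cell gene Hba-a1, which marks blood left in the tissue, had 118, 246, 176 and 70.1 RPM in library order. Alas2, the other red cell gene in the table, had 7.43, 8.60, 9.77 and 7.08. For Alas2, MH over CxWT (0.18 ± 0.11) and CxH over MWT (0.07 ± 0.13) lay within 2 counting errors of 0. Only Hba-a1 therefore set a highest and a lowest library apart.

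Microglial genes also differed between the libraries. Their sum over 10 genes was 483, 309, 369 and 412 RPM in library order. In CxH against CxWT, 5 of 10 were called higher (Cd68, Tmem119, Tyrobp, Trem2 and Aif1; 9.46% of all genes) with a list median of 0.73, 3 of them also after the correction, and in MH against MWT, Tyrobp and Aif1 were called lower (12.7% of all genes) with a list median of -0.22. The astrocyte gene Gfap had 603, 280, 253 and 555 RPM, while the astrocyte list as a whole summed to between 2395 (CxWT) and 3199 (CxH). In CxH against CxWT its calls were split: Gfap (1.11 ± 0.018) and the glutamate carrier Slc1a2 (0.84 ± 0.010) were called higher (2 of 8, against 9.46% of all genes), and Aqp4, the water channel of the end-feet (-0.80 ± 0.026), and Slc4a4 (-0.86 ± 0.025) lower (2 of 8, against 11.5%). Between MH and MWT, Gfap (-1.13 ± 0.019), Aqp4 (-1.30 ± 0.024), Slc4a4 (-1.14 ± 0.026) and S100b (-0.79 ± 0.029) were called lower in MH (4 of 8, against 12.7%) and 0 higher (12.3%). After the correction, Aqp4 was at -0.41 in CxH over CxWT and S100b at -0.44 in MH over MWT, neither a call. The other astrocyte calls in these pairs held. Like Ly6c1 and Tek, Gfap and Tyrobp were high in CxH and MWT and low in CxWT and MH. Oligodendrocyte genes summed to 4762 and 4947 RPM in CxH and MH and to 9056 and 7174 in CxWT and MWT, and choroid plexus genes to 579 and 629.8 in CxH and MH and to 135 and 258 in CxWT and MWT. Most of the choroid plexus sum was Ttr, with 537, 113, 583 and 221 RPM in library order, and the other 5 genes summed to 42.1, 22.1, 47.2 and 37.1 RPM.

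**Figure D3:**
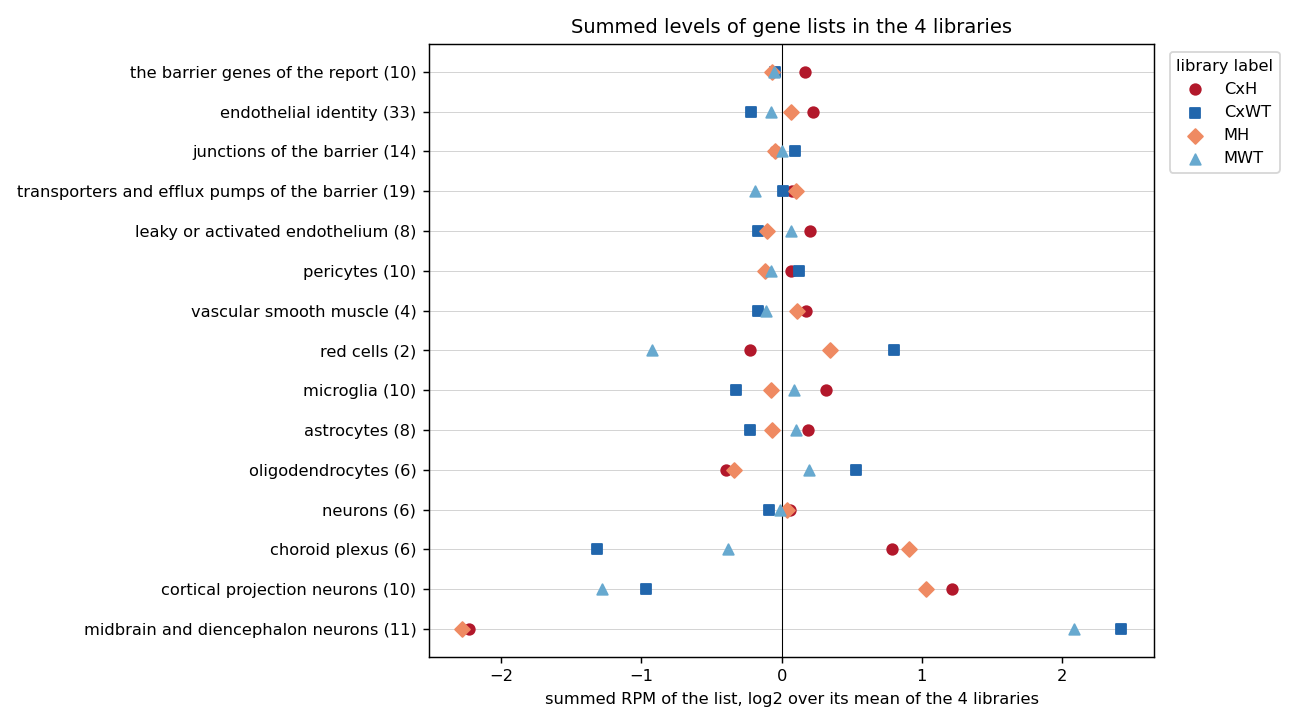
Summed RPM of each gene list in the 4 libraries, as log2 over the mean of the libraries (horizontal axis), with the number of genes in the table in brackets. Of the barrier and endothelial lists, endothelial identity spread most, between 580 and 787 RPM. A sum is weighted to genes with many reads and can hide genes that move in opposite directions. The cortical and the midbrain and diencephalon lists place CxH with MH and CxWT with MWT.

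The GC content of the transcripts also moved with the ratios. It ranged from 40.3% (Slco1a4) to 60.5% (Cldn5) in the longest coding transcripts of the 10 genes. Over 10746 genes that had 100 or more reads in all 4 libraries, Spearman's rho between GC content and the log2 ratio was between 0.16 (MH over CxWT) and 0.69 (CxH over MWT). These are correlations across genes of the same libraries, and genes are not independent replicates. Over the 10 barrier genes rho was 0.85 in CxH over MWT and 0.26 in CxH over CxWT, as a description of 10 points. With the ratios corrected for both GC content and length of the transcript, the calls of Cldn5 and that of Ly6c1 in MH over MWT ended, as given above, and Slco1a4 moved from -0.62 to 0.07 in CxH over MWT. Cdh5 stayed at 0.70, just under the threshold before rounding, in CxH over CxWT, and Tek reached 0.71 and the threshold there. The median of the 10 genes after the correction was 0.39 in CxH over CxWT, -0.06 in MH over MWT and 0.34 in CxH over MH.

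**Figure D4:**
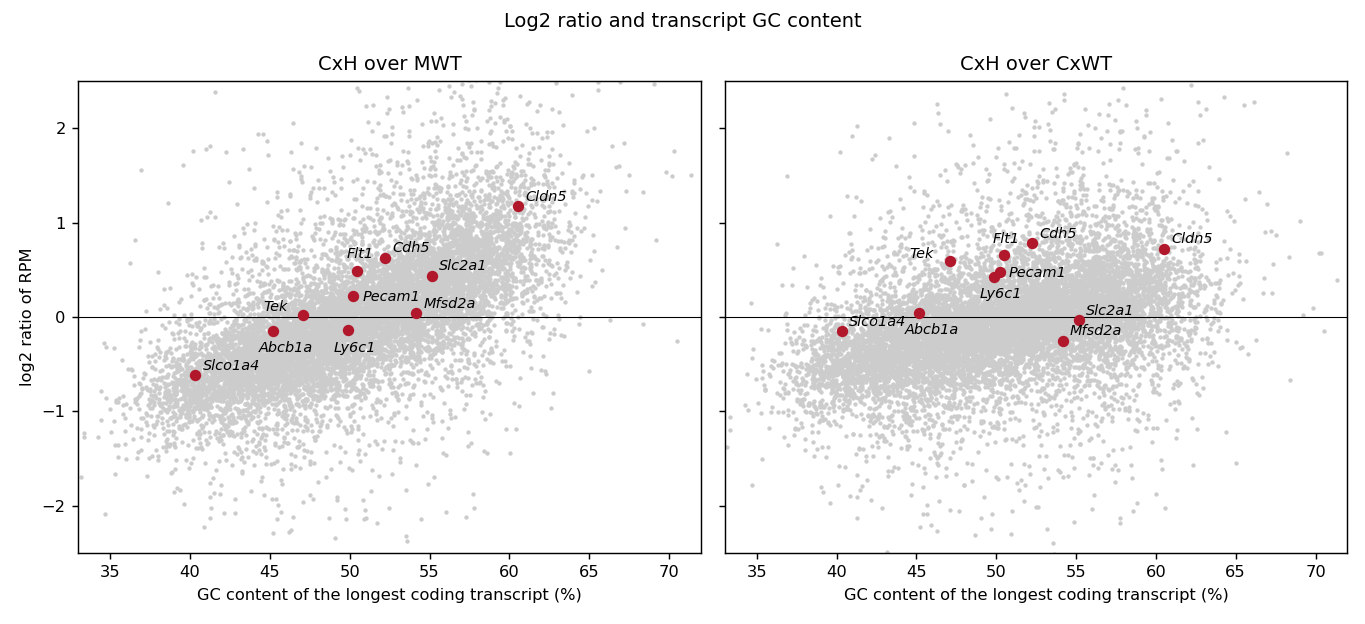
Log2 ratio of RPM (vertical axis, cropped at 2.5 in size) against GC content of the longest coding transcript in percent (horizontal axis), for CxH over MWT and CxH over CxWT. Red points are the 10 barrier genes and grey points the genes that had 100 or more reads in all 4 libraries, and from Slco1a4 to Cldn5 the red points climb with GC content in CxH over MWT, where Ly6c1 and Mfsd2a lie below the others of like GC content.

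The 10 genes did not share a single profile. Centred on each gene's mean of log2 RPM over the 4 libraries, their median profile in library order was 0.25, -0.13, -0.06 and -0.01. By Euclidean distance over these 4 values, Pecam1 lay nearest to it (0.099), then Flt1 (0.21), and Cldn5 (0.66), Ly6c1 (0.65) and Slco1a4 (0.62) lay farthest. Of the 11000 other genes that had 100 or more reads in all 4 libraries, 50 lay nearer than Pecam1 and 6951 nearer than Cldn5. The 5 nearest were Txnl4b (0.036), Naa38 (0.037), Slc39a1 (0.043), Ace (0.050) and Arfip2 (0.051). Ace encodes angiotensin-converting enzyme, which is found on endothelium and choroid plexus, and Slc39a1 a zinc importer.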

How the data were processed

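The authors sequenced polyA RNA on the SOLiD 3 Plus system and aligned reads to the NCBI37/mm9 genome with PASS 2.10, allowing 2 mismatches. They deposited raw counts, reads per gene aligned to a single gene, where over 50% of a gene was covered. The gene annotation they used is not given in the sources used here, and DEGseq 1.18 was their tool for calls. Here counts were divided by the aligned reads that the study gives for each library (RPM), with a count of 0 set to 1 in ratios. The likelihood ratio test was run on all 12700 genes, since each condition had 1 library. Symbols came from Entrez IDs (12690 matched), and positions, length and GC content from GENCODE vM1 (12469 matched, 12277 with a coding transcript).

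The barrier genes and the 17 other gene lists (176 of 195 genes found) were chosen with earlier results of these data known. Text names all barrier genes, Ids, near copies, at most 4 called genes with the most reads per list and pair, every member of a count of 5 or fewer, and the 5 genes of nearest profile. Alternatives were column totals, TMM and DESeq2 scaling, at least 100 reads in every library, a log2 threshold of 1, Benjamini-Hochberg adjustment, edgeR's exact test with an assumed coefficient of variation of 0.2, and a GC content and length correction, where a call took the corrected ratio and the p-value of the uncorrected counts. Fits of all 4 libraries (edgeR quasi-likelihood, genotype with or without area as a block) and the pericyte list without Zic1 and choroid plexus list without Ttr were added after seeing the data. Scripts were tested on simulated data. Some genes of the lists are not reported here. Tools were edgeR 4.0.16 and DESeq2 1.42.0 in R 4.3.3, and scipy 1.17.1, numpy 2.4.6, pandas 2.3.3, biopython 1.88 and matplotlib 3.10.9 in Python 3.11.15.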

Additional observations from a re-analysis of the deposited data

Results flagged for a closer look

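The effect of genotype by label differed between Cx and M, by a Wald test on counting errors with a difference of at least 0.7 in size, for Ly6c1 and Tek of the barrier genes and for Ids. The difference of the log2 ratios, CxH over CxWT minus MH over MWT, was 1.41 for Ly6c1, 0.88 for Tek and -2.63 for Ids. Over all genes 13.2% passed the same rule. Ly6c2, the near copy of Ly6c1, had a difference of 0.76 ± 0.097. The Ids difference goes with the reads in M that are against the labels of MH and MWT. With 1 library per condition, these tests compare libraries, and variation between pools of mice could not be measured.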

How the results depend on the processing

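Of the 480 values that the 60 log2 ratios of the barrier genes took under the 8 alternatives, 452 kept their direction and their side of the call, 10 lost the call, 4 gained it and 14 changed sign without a call in either. The filter on reads could change none, as every barrier gene had 100 or more reads in each library. The filter, the log2 threshold, the adjustment and the assumed variation left each ratio as it was, so its direction could not change. The GC content and length correction alone kept 47 of 60. In CxH against CxWT the 2 calls became 0 at a log2 threshold of 1 and 0 with an assumed coefficient of variation of 0.2, while after the GC content and length correction both were lost and 1 other gene, Tek, was called. In MH against MWT the 1 call became 0 at a log2 threshold of 1 and 0 after the correction. In CxH against MH the 1 call became 0 at a log2 threshold of 1. In CxH against MWT the 1 call became 2 with column totals, where Slco1a4 was at -0.73, and 0 after the correction. The stricter threshold acts by its construction, and for the other changes the cause was not tested. The scaling moved all log2 ratios of a pair by at most 0.11. Flt1 in CxH against CxWT passed at 0.75 with TMM and 0.74 with DESeq2 scaling, which made 3 calls there, and that scaling turned the calls over all genes from 1201 higher and 1457 lower to 1447 higher and 1135 lower (TMM). In CxH against MWT column totals gave 1609 higher and 2504 lower calls over all genes, against 1980 and 1915, and in MH against MWT they gave 1377 and 1896, against 1556 and 1614.

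Over all genes, a log2 threshold of 1 took the calls from 2658 to 1401 (CxH against CxWT), from 3170 to 1642 (MH against MWT), from 444 to 143 (CxH against MH), from 958 to 295 (CxWT against MWT), from 3895 to 1961 (CxH against MWT) and from 1943 to 1064 (MH against CxWT). The assumed variation took CxH against MH to 191 and CxWT against MWT to 487, the filter on reads took them to 201 and 628, and the correction took them to 290 and 384 and CxH against MWT to 1890. In the fit of all 4 libraries, chosen after seeing the data, 1 barrier gene passed for genotype with area as a block, where CxH against CxWT had 2 calls and MH against MWT 1, and 0 passed without the block. By label the areas of a genotype come from the same brains, so they are not independent replicates of it. For area 0 passed, where CxH against MH had 1 call. With 1 library per condition there was no replicate to omit within a condition. Depth did not limit detection of these genes, but counting errors leave out the variation between mice and pools.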
